A study of Mus musculus with 9 samples.

Results

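The genes described here make nicotinamide adenine dinucleotide (NAD), recover it, divert its precursor or consume it in mouse liver. They are the 10 listed genes Nampt, Nmrk1, Nnmt, Haao, Qprt, Nmnat1, Nmnat3, Nadk, Sirt1 and Sirt3, out of 19938 genes tested. The list goes by gene name and role, and was drawn up with earlier results of these data known. Each was represented by 1 probe set, so no choice between probe sets was needed. RNA from the liver of 9 mice was hybridised to 1 Affymetrix array per animal, with 3 animals in each of 3 groups. Wild-type animals were C57BL/6J, mutant animals carried Clock-D19, and rescue animals carried Clock-D19 and were given, in week 10, 35 µg of a plasmid that encodes normal CLOCK, injected hydrodynamically into the tail vein. All groups ate a diet with 45% fat for 5 weeks from 10 weeks of age, were kept on a 12 h:12 h light:dark cycle, and were killed at zeitgeber time 10, that is 10 h after lights on.

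Several features limit the groups as models. Clock-D19 is a splice mutation whose protein pairs with BMAL1 but activates transcription poorly. The plasmid backbone, pLIVE, is built for expression in liver, and hydrodynamic injection reaches only some of the hepatocytes. No sham or empty-vector injection is described in the labels for the other groups, so effects of the injection and of the plasmid's Clock cannot be told apart. A single time of day was sampled, so a lower mean level and a moved daily peak cannot be told apart either. The sex of the animals is not given in the labels.

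NAD is both a redox carrier and a substrate. Hepatocytes make it from tryptophan (the de novo route, in which HAAO and QPRT act late), from nicotinic acid, and from nicotinamide, which NAMPT turns into nicotinamide mononucleotide in the rate-limiting step of salvage. NMRK1 phosphorylates nicotinamide riboside to the same mononucleotide, the NMNAT enzymes join mononucleotides to ATP's adenylyl group to form the dinucleotide, NADK phosphorylates NAD to NADP, and NNMT methylates nicotinamide and so removes it from salvage. Sirtuins such as SIRT1 in the nucleus and SIRT3 in mitochondria consume NAD when they deacetylate proteins. Nampt is a known target of CLOCK and BMAL1 through E-boxes, and SIRT1 in turn acts on the clock.

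Of the 10 genes, 9 had an entry in RefSeq's promoter table for GRCm38.p6, with 12 start sites between them. Nnmt had no entry, so the motif search does not cover it. The 250 bases before the start are shown for the members that fell in mutant liver, since these are the windows in which elements read by the clock would be sought. They lie at chr12:32820085-32820334 on the plus strand for Nampt, at chr19:18631766-18632015 on the plus strand for Nmrk1, and at chr10:63339036-63339285 on the minus strand for Sirt1. Each is written 5′ to 3′ along the gene, with capitals marking a match to the E-box CACGTG.
Nampt: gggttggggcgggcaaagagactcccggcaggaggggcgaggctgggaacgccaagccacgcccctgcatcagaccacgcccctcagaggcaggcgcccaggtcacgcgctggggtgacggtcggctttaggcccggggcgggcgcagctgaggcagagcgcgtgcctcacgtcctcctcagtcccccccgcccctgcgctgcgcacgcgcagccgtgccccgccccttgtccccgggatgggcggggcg
Nmrk1: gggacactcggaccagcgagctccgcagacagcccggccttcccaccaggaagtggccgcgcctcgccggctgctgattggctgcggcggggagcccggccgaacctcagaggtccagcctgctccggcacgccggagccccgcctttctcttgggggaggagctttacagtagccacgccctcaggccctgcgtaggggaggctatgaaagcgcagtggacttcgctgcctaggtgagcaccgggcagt
Sirt1: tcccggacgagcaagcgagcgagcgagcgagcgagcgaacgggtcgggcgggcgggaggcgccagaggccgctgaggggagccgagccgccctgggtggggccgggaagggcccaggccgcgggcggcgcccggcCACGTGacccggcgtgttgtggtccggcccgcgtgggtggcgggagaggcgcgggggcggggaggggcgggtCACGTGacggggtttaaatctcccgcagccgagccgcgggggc
The E-box CACGTG, which reads the same on both strands, occurred 2 times in the Sirt1 window, beginning 115 and 43 bases before the start. It did not occur in the windows of Nampt and Nmrk1. Among the other members with an entry it occurred only before the downstream of the 2 Nadk start sites, 40 bases upstream of it. Of 32851 windows of this length over all genes, 6.02% held the E-box and 0.43% held it 2 or more times. The E-box variant CACGTT and the D-box written as TTATGTAA or TTACGTAA were searched on both strands. So was TAGGTCA, the core AGGTCA of the element bound by ROR and REV-ERB with a T before it. None of these matched any of the 12 windows. In the same order, they were found in 3.85%, 0.93% and 2.23% of all windows. The shorter core AGGTCA was not searched alone. None of the motifs searched overlaps another in these windows, and a match or its lack describes the letters of the window only.

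Values are log2 levels after RMA, the array method that corrects background, equalises the arrays' distributions and summarises probes into probe sets. Each fold change therefore lies on that scale. All 9 arrays were fitted together with limma, and a gene was called at an adjusted p under 0.05 after Benjamini-Hochberg adjustment over the 19938 genes within each comparison. The labels do not say whether replicates differ in litter or handling day, so neither was modelled. The p-values test differences of group means against the spread between these animals, pooled over the 3 groups and moderated by that of all genes.

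Facts of the whole set bear on what follows. Clock itself spanned 9.24 to 9.97 in wild-type, 9.89 to 10.88 in mutant and 9.41 to 10.33 in rescue livers. Clock was called higher in mutant than in wild type (0.94 ± 0.26, limma adjusted p = 0.0266), although the values overlapped, and was not called in rescue against mutant (-0.66 ± 0.26, adjusted p = 0.168) or against wild type (0.28 ± 0.26, adjusted p = 0.719). Because mutant and plasmid transcripts share most of the gene, this level does not check the labels. The 12 measured hepatocyte markers were bright in every group (log2 of their summed level 15.79 to 15.95 in wild type, 15.83 to 16.03 in mutant, 15.82 to 16.02 in rescue), and none of them was called in any comparison. Of 12 Kupffer cell markers 8 fell in the mutant, with a summed level of 10.69 to 10.79 against 11.96 to 12.38 in wild type and 11.08 to 11.44 in rescue. Of 12 endothelial markers 6 fell (11.0 to 11.13 against 11.61 to 11.80, and 11.23 to 11.57 in rescue), and of 12 stellate cell markers 4 fell (11.42 to 11.50 against 11.78 to 11.91, and 11.70 to 11.82 in rescue). The median difference of the stellate list in mutant against wild type was only -0.11, and 5 of its markers lay above 0. The Kupffer cell and endothelial medians were -0.92 and -0.52, with 1 and 0 markers above 0. Of 9 lymphocyte markers 1 fell, and of 4 bile duct markers 0 were called. Over all genes 9.02% were called downward in this comparison. Each of these markers was brighter than the median olfactory receptor gene, used as a gauge of genes silent in liver, and the part of other cell types in the results below was not tested. In whole liver, fewer cells of a type and less RNA per cell cannot be told apart. All 10 members were brighter than that gauge (4.14 to 4.33 over the arrays) and lay outside the dimmest 40% of genes.

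In Clock-D19 livers the salvage genes Nampt and Nmrk1 and the deacetylase gene Sirt1 were lower than in wild type, and the de novo genes Haao and Qprt were higher. These 5 of the 10 members passed the test, 2 upward and 3 downward. Over all genes 15.4% were called, 6.37% upward and 9.02% downward. The remaining 5 members, Nnmt, Nmnat1, Nmnat3, Nadk and Sirt3, did not pass. The values of 6 of the 10 did not overlap between mutant and wild type, against 35.7% of all genes. The median difference of the members was 0.15 on the log2 scale, and that of all genes 0.07.

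Nampt, the rate-limiting salvage gene, stood at 9.85, 9.68 and 10.20 in the wild-type livers and at 8.24, 8.46 and 8.49 in the mutant livers. The groups were separated by 1.19, against SDs of 0.26 in wild type and 0.14 in mutant. Nampt fell by 1.51 ± 0.13 on the log2 scale (SE; 2.85-fold, limma adjusted p = 1e-05, n = 3 per group), the 22nd largest fall among all genes.

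Nmrk1, which feeds nicotinamide riboside into the same product, stood at 8.74, 8.33 and 8.90 in wild type and at 7.45, 7.33 and 7.21 in mutant. All mutant values lay at least 0.88 below the lowest wild-type value. The fall was 1.33 ± 0.14 (2.51-fold, limma adjusted p = 5.27e-05, n = 3 per group), which ranked 38th. Nmrk2, the paralogue of Nmrk1 that is known mainly from muscle, was at 5.41 in wild type and 5.57 in mutant (0.16 ± 0.11, limma adjusted p = 0.359).

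Both members that act in synthesis from tryptophan rose. Haao, whose dioxygenase opens the ring of 3-hydroxyanthranilate, was at 10.50, 10.23 and 10.20 in wild type and at 11.29, 11.19 and 11.13 in mutant. The mutant values lay 0.63 or more above all wild-type values, and Haao rose by 0.89 ± 0.13 (1.86-fold, limma adjusted p = 6.22e-04, n = 3 per group). Qprt, which turns quinolinate into nicotinic acid mononucleotide, was at 8.98, 8.82 and 8.95 against 9.68, 9.49 and 9.52. It rose by 0.65 ± 0.12 (1.56-fold, limma adjusted p = 0.00301), again without overlap.

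Nnmt, the nicotinamide methyltransferase gene, did not differ beyond its spread between mutant and wild type. It stood at 7.79, 7.60 and 7.52 in wild type and at 8.06, 7.54 and 7.97 in mutant, and the groups overlapped. The difference was 0.22 ± 0.16, with a 95% interval of -0.13 to 0.57 (limma adjusted p = 0.385).

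The members Nmnat1, Nmnat3 and Nadk, which act after the mononucleotides are made, were not called. Nmnat1, which encodes the nuclear adenylyltransferase, was at 6.16, 5.92 and 6.18 in wild type and 6.18, 6.19 and 6.42 in mutant. Nmnat3, whose enzyme is placed in mitochondria, was at 6.52, 6.87 and 6.48 against 6.62, 6.80 and 6.77. Nadk, the cytosolic NAD kinase gene, was at 8.68, 8.68 and 8.69 against 8.84, 9.01 and 8.80. The wild-type values of Nadk were nearly identical and all mutant values lay above them, by 0.12 or more, yet the difference of 0.20 ± 0.11 did not pass (limma adjusted p = 0.212). The 95% intervals of the 3 differences reached at most 0.44, so a doubling of any of these genes lies outside them.

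Of the sirtuin genes among the members, Sirt1 passed and Sirt3 did not. Sirt1 was at 8.03, 7.82 and 7.89 in wild type and at 7.47, 7.41 and 7.49 in mutant, with no overlap. It fell by 0.46 ± 0.11 (1.37-fold, limma adjusted p = 0.0108, n = 3 per group), but not without wild-type replicate 1 (-0.40, adjusted p = 0.0501). Sirt3 was at 8.44, 7.99 and 8.11 against 8.44, 8.12 and 8.39, overlapping throughout, and the difference was 0.14 ± 0.13 (adjusted p = 0.503). A test of the difference between the responses of Sirt1 and Sirt3 was not made.

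**Figure D1:**
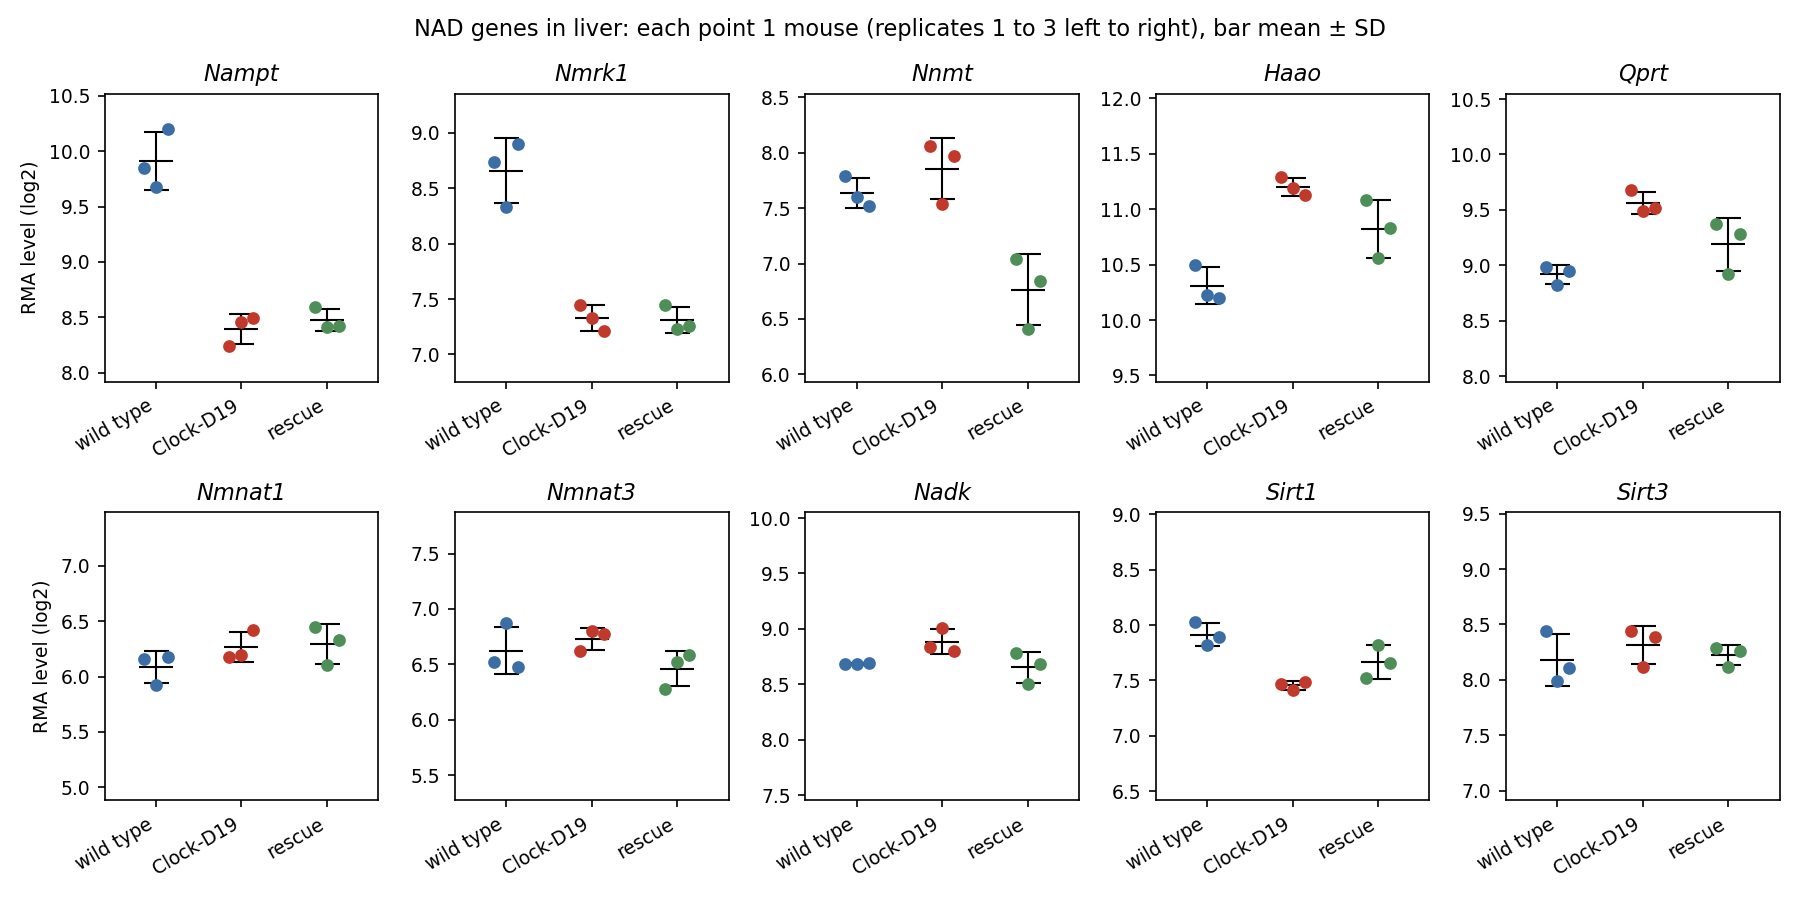
RMA log2 level (vertical axes, each spanning the same number of log2 units) of the 10 NAD genes in wild-type, Clock-D19 and rescue liver; points are single mice and bars give the mean and SD of 3. Nampt and Nmrk1 are high in wild type only, Haao and Qprt are highest in Clock-D19, and Nnmt is lowest in rescue, with 6.41 to 7.04 against 7.52 to 8.06 in the other groups.

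Rescue livers were next compared with mutant livers, which asks what the Clock plasmid and its injection together left different in the same genotype. Of the 10 members only Nnmt passed, and it fell; over all genes 3.81% were called, 2.61% upward and 1.2% downward. The salvage genes Nampt and Nmrk1 stayed within the mutant range or close to it. All members except Nmrk1 and Nmnat1 had rescue means on the wild-type side of the mutant mean, and of these only Nnmt passed. For Nampt that step was only 0.08, and for Nnmt, Nmnat3 and Nadk the rescue mean also lay below the wild-type mean. The values of 6 members did not overlap between rescue and mutant, against 25.7% of all genes, and the median difference was -0.16 against -0.05 for all genes. This comparison and the preceding one use the same mutant arrays, so a chance deviation of those arrays moves them in opposite directions.

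Nampt was at 8.59, 8.41 and 8.42 in the rescue livers, within 0.10 of the mutant maximum and 1.09 below the lowest wild-type value. The difference from mutant was 0.08 ± 0.13, with a 95% interval of -0.21 to 0.36 (limma adjusted p = 0.777). The upper bound is smaller than the mutant's deficit, a difference from wild type of -1.51. Nmrk1 was at 7.45, 7.23 and 7.26, almost the same values as in the mutant, and its difference was -0.01 ± 0.14 (95% interval -0.31 to 0.28, adjusted p = 0.973).

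Nnmt, which had not differed between mutant and wild type, was the member called here. It was at 7.04, 6.41 and 6.84 in rescue, and all these values lay at least 0.50 below the lowest mutant value. The fall from mutant was 1.09 ± 0.16 (2.13-fold, limma adjusted p = 0.00443, n = 3 per group), the 6th largest among all genes. Rescue livers also differed from wild type by -0.87 ± 0.16 (adjusted p = 0.0105), so the level left the range of both other groups. Without wild-type replicate 1 the difference of Nnmt from wild type was -0.80 (adjusted p = 0.052), while the fall from mutant was called under all 18 alternatives (-1.25 to -0.92, adjusted p at most 0.022).

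The de novo genes lay between the other groups in the rescue livers. Haao was at 11.08, 10.56 and 10.83, below all mutant and above all wild-type values, although by no more than 0.06 at either edge. Its difference from mutant was -0.38 ± 0.13 (95% interval -0.66 to -0.09, limma adjusted p = 0.125). Qprt was at 9.37, 8.92 and 9.28, below all mutant values and overlapping wild type, with a difference of -0.37 ± 0.12 (95% interval -0.63 to -0.11, adjusted p = 0.103). Qprt was called with quantile normalization repeated (-0.40, adjusted p = 0.0441).

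None of the remaining members passed in rescue against mutant. Sirt1 was at 7.52, 7.82 and 7.66, all above the mutant, with a difference of 0.21 ± 0.11 (limma adjusted p = 0.285). Nadk was at 8.78, 8.50 and 8.68 (-0.23 ± 0.11, adjusted p = 0.229) and Nmnat3 at 6.28, 6.52 and 6.58 (-0.27 ± 0.13, adjusted p = 0.24). Each of these lay on 1 side of all mutant values, separated by 0.03 only. Nmnat1, at 6.45, 6.10 and 6.33, and Sirt3, at 8.29, 8.12 and 8.26, overlapped the mutant, with differences of 0.03 ± 0.12 and -0.09 ± 0.13.

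Within the rescue group replicate 2 was the lowest for 8 of the 10 members and replicate 1 the highest for 8. In wild type replicate 2 was lowest for 7 members. In the mutant group the lowest value fell on replicates 1, 2 and 3 for 3, 4 and 3 members. The spread of Haao and Qprt in rescue (SD 0.26 and 0.24, against 0.08 and 0.10 in mutant) was wider, with replicate 2 the lowest for both genes.

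**Figure D2:**
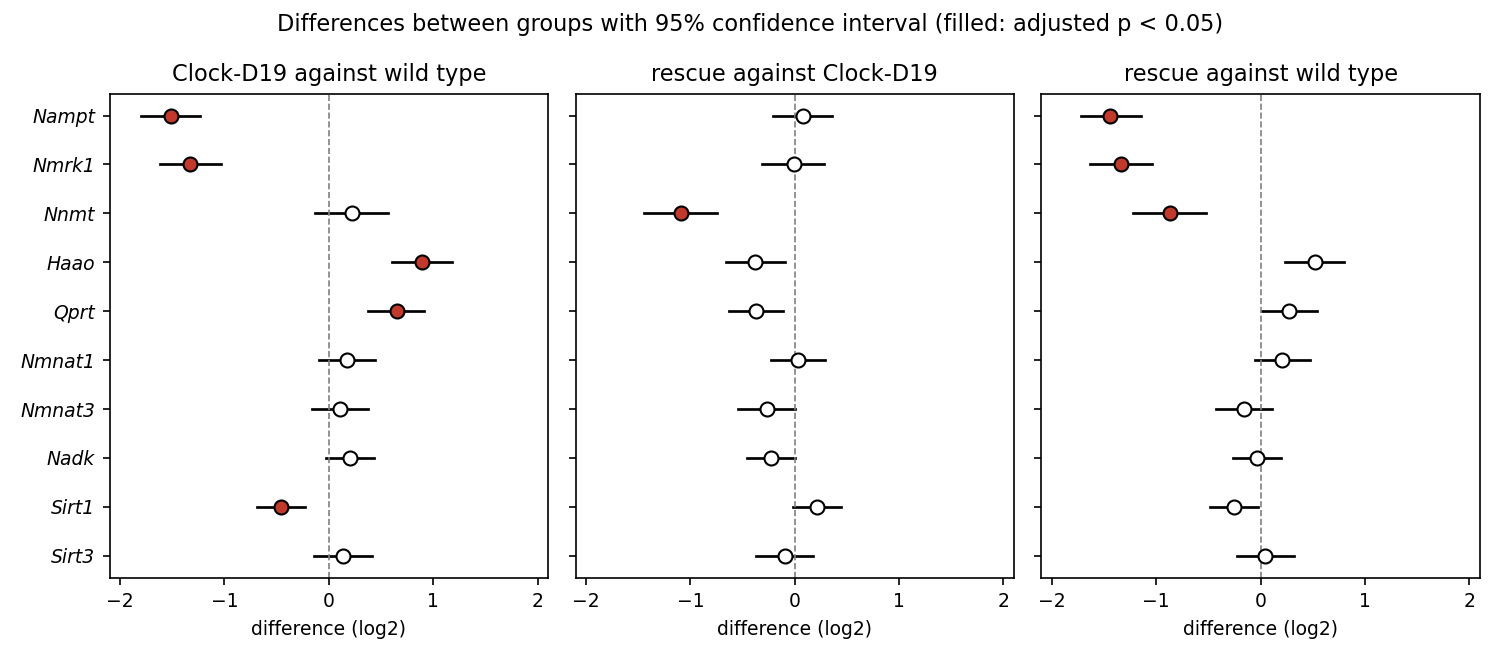
Difference in log2 level (horizontal axes) of each member in the 3 comparisons, with its 95% confidence interval from limma; filled points passed an adjusted p of 0.05. Filled points mark 5 genes in Clock-D19 against wild type, Nnmt alone in rescue against Clock-D19, and Nampt, Nmrk1 and Nnmt in rescue against wild type.

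Set against wild type, rescue livers were lower in 3 members, of which Nampt and Nmrk1 had also been lower in the mutant and Nnmt had not, while over all genes 2.28% were called and 1.35% downward. Nampt differed by -1.44 ± 0.13 (2.71-fold lower, limma adjusted p = 4.69e-05), the 10th largest fall of this comparison, and Nmrk1 by -1.34 ± 0.14 (2.53-fold lower, adjusted p = 1.12e-04), the 13th. Both salvage genes were called under each of the 18 alternatives. The values of 5 members did not overlap, against 19.5% of all genes, and the median difference was -0.09 against 0.01.

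The other members did not pass against wild type. Haao was 0.52 ± 0.13 higher (95% interval 0.23 to 0.80, limma adjusted p = 0.0578); it was called in 6 of the 18 alternatives, among them without rescue replicate 2 (0.65, adjusted p = 0.0259). Qprt was 0.27 ± 0.12 higher (adjusted p = 0.324) and Sirt1 differed by -0.25 ± 0.11 (adjusted p = 0.303). The rescue and wild-type values of Sirt1 met at 7.82 without crossing. Nmnat1, Nmnat3, Nadk and Sirt3 differed by 0.21, -0.16, -0.03 and 0.04 on the log2 scale, with adjusted p from 0.50 to 0.946. An F test over the 3 groups called 6 members, Nampt, Nmrk1, Nnmt, Haao, Qprt and Sirt1, and 12.9% of all genes. Sirt1 lost this call with quantile normalization repeated and without wild-type replicate 1 or 3 or any 1 mutant array.

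A further 40 genes of NAD metabolism were listed by their known roles, and 38 were measured; Cd38 and Parp4 were not analysed here. In mutant against wild type 7 rose, 1 fell and 30 did not pass, with a median of 0.14. That is 8 of 38 called where 15.4% of all genes were. Naxe, the epimerase gene that repairs damaged NADPH hydrates, rose by 0.73 ± 0.14 (limma adjusted p = 0.00317), from 8.56, 8.21 and 8.30 to 9.29, 8.78 and 9.20. Afmid, the formamidase gene of the kynurenine route, rose by 0.62 ± 0.13 (adjusted p = 0.00543), from 8.91, 8.65 and 8.35 to 9.30, 9.17 and 9.29.

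The route from nicotinic acid and the extracellular step also held called genes. Naprt, which starts the nicotinic acid route, rose by 0.47 ± 0.12 (limma adjusted p = 0.0197), from 6.87, 6.65 and 6.53 to 7.31, 6.98 and 7.16. Nadsyn1, whose enzyme completes that route, did not pass (-0.17 ± 0.11, adjusted p = 0.3). The Naprt call was lost with arrays centred on their median (0.39, adjusted p = 0.0598), with the span trend removed (0.34, adjusted p = 0.0993) and without wild-type replicate 2 or 3 or mutant replicate 1 or 3 (adjusted p 0.0539 to 0.0927). Nt5e, an ectonucleotidase gene that also dephosphorylates nicotinamide mononucleotide, rose by 0.66 ± 0.17 (adjusted p = 0.0201), with overlapping groups, and lost its call without wild-type replicate 2 or 3 or mutant replicate 1 or 3 (0.46 to 0.65, adjusted p 0.0552 to 0.0987). Of the NAD-consuming enzymes, Sarm1, a NAD-cleaving hydrolase gene known from axons, rose by 0.38 ± 0.11 (adjusted p = 0.0265), and the tankyrase gene Tnks2 fell by 0.36 ± 0.10 (adjusted p = 0.0229). Sarm1 is too dim to be tested with the dim genes left out, and its call was lost with quantile normalization repeated (adjusted p = 0.0518), with median centring (adjusted p = 0.0617) and without wild-type replicate 1 or 3 or mutant replicate 1 or 2 (adjusted p 0.0691 to 0.0861). Tnks2 lost its call with quantile normalization repeated (-0.25, adjusted p = 0.0944) and without wild-type replicate 2 or 3 or mutant replicate 2 (adjusted p 0.0581 to 0.0758). The remaining 2 called genes, Nmnat2 (0.34 ± 0.10, adjusted p = 0.0292) and Naxd (0.41 ± 0.13, adjusted p = 0.0476), were outside the naming rule and are named after their values were seen. The call of Nmnat2, a further adenylyltransferase gene, was lost in 6 of the 18 alternatives (median centring, and without any 1 wild-type array or mutant replicate 1 or 2). That of Naxd, which encodes the dehydratase acting beside NAXE, was lost in 11 (median centring, the 6 arrays compared, the span trend removed, and without any 1 array other than mutant replicate 2). The calls of Naxe and Afmid were kept in all 18 alternatives.

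Some genes of the de novo route were called and others were not. The 10 further genes listed with that route include Acmsd, Kyat1, Kyat3 and Aadat, which act on its side branches. Of the 10, Afmid rose, as did the members Haao and Qprt, and 9 did not pass. Among the 9 were Tdo2, the route's first enzyme gene in liver (-0.28 ± 0.11, limma adjusted p = 0.105), Kmo (-0.03 ± 0.10, adjusted p = 0.879) and Kynu (0.19 ± 0.10, adjusted p = 0.234). Tdo2 was called with median centring, the trended and robust prior or array weights. Of the 12 measured consuming enzymes 1 rose, 1 fell and 10 did not pass, among them every further sirtuin gene, Sirt2 and Sirt4 to Sirt7 (0.15 to 0.46 on the log2 scale). Sirt7 (0.46 ± 0.16, limma adjusted p = 0.0707) was called with the dim genes left out, with the 6 arrays compared and without rescue replicate 2. Sirt4 was called with array weights and without mutant replicate 2. The aldehyde oxidase genes Aox1 and Aox3, whose enzymes oxidise the product of NNMT, were at 0.10 ± 0.12 and 0.16 ± 0.11. Nnt, the mitochondrial transhydrogenase gene in which C57BL/6J mice carry a known deletion, was at 9.42, 9.30 and 9.41 in wild type, 8.97, 8.75 and 9.48 in mutant and 9.38, 9.20 and 9.26 in rescue, and did not pass in any comparison (-0.31 ± 0.15 in mutant against wild type, adjusted p = 0.178). Without mutant replicate 3, Nnt was called lower in mutant than in wild type (-0.52 ± 0.12, limma adjusted p = 0.0154).

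In rescue against mutant 1 of the 38 passed, where 3.81% of all genes were called, 1.2% downward. That gene, Naxe, fell by 0.61 ± 0.14 (limma adjusted p = 0.0317) to 8.61, 8.34 and 8.50. This call was lost with arrays centred on their median (-0.55, adjusted p = 0.0533), with the trend over gene span removed (-0.52, adjusted p = 0.0828) and without mutant replicate 1 (-0.51, adjusted p = 0.114) or 3 (-0.55, adjusted p = 0.0916) or rescue replicate 2 (-0.54, adjusted p = 0.103) or 3 (-0.62, adjusted p = 0.0859). Naprt did not pass (-0.42 ± 0.12, limma adjusted p = 0.0714). It was called with a replicate block, the dim genes left out, the trended and robust prior or array weights. In rescue against wild type limma called 0 of the 38, where 2.28% of all genes were called. Of the 38, 8 had an unadjusted p under 0.05, as did 14.2% of all genes. Kyat1 (0.46 ± 0.13, limma adjusted p = 0.0747) was called with a replicate block, the dim genes left out, quantile normalization repeated or the trended and robust prior.

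**Figure D3:**
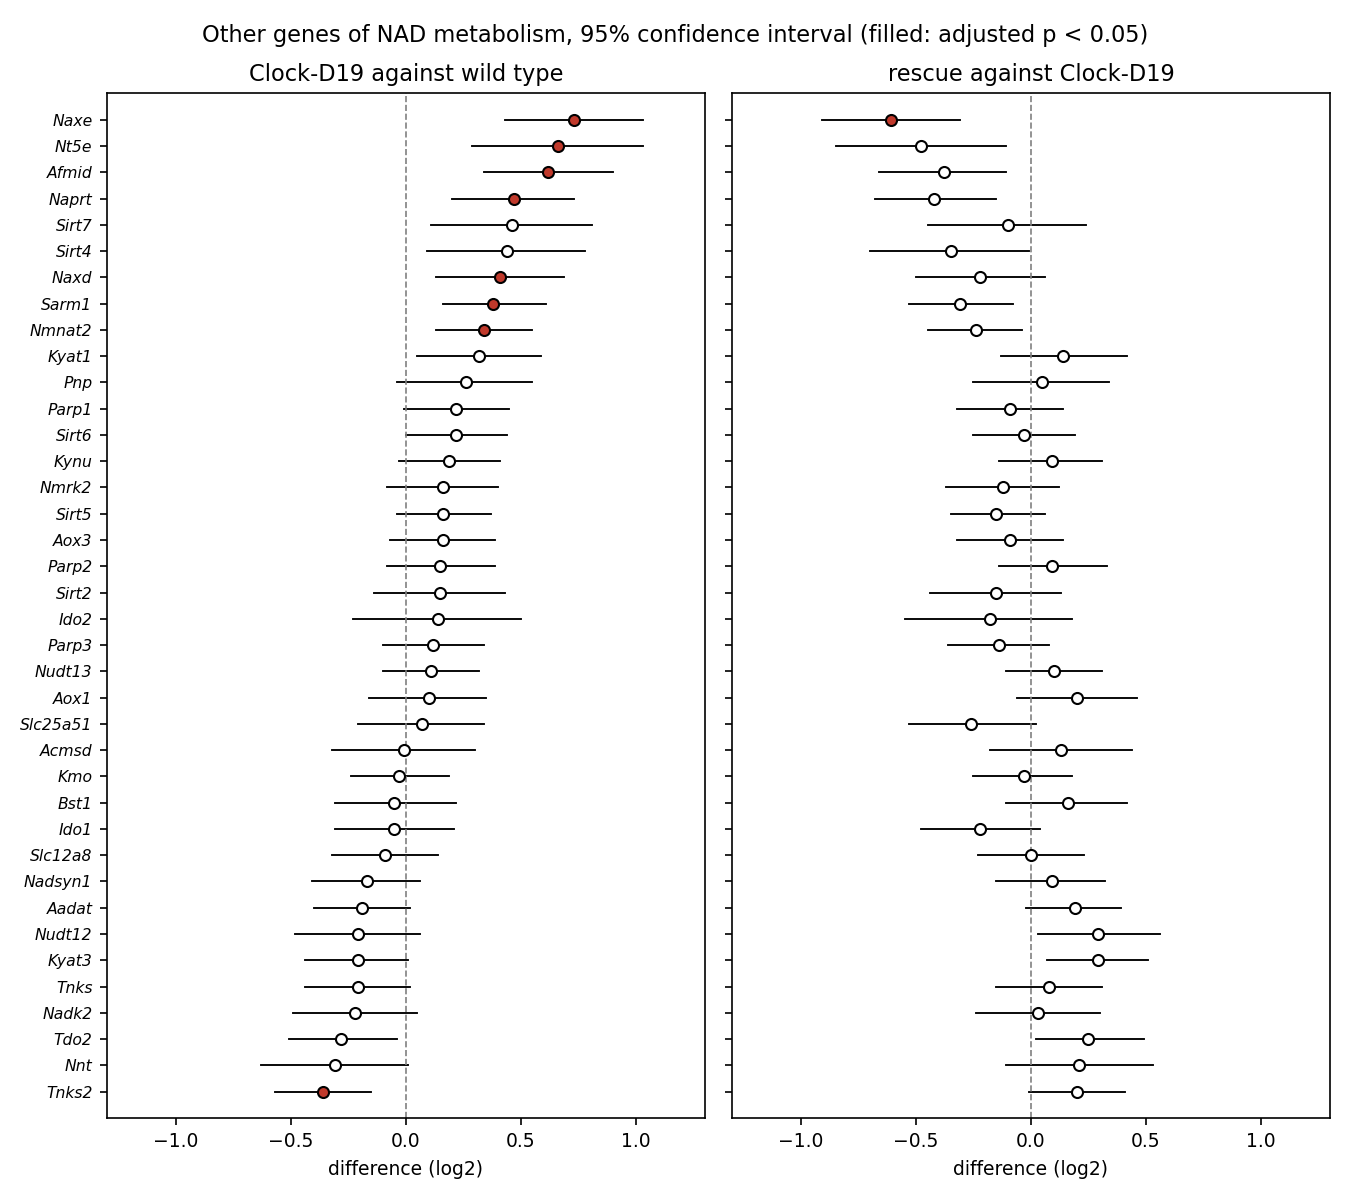
Difference in log2 level (horizontal axes) of the 38 further NAD genes in Clock-D19 against wild type and in rescue against Clock-D19, ordered by the first, with 95% confidence intervals from limma; filled points passed an adjusted p of 0.05. The 7 genes that rose sit near the top, with Sirt7 and Sirt4 unfilled among them, Tnks2 sits at the bottom, and Naxe is the only filled point in the second comparison.

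The genes most like a member were sought over the 9 arrays by the root mean square distance between log2 levels centred on each gene's own mean. The gene nearest to Nampt was another member, Nmrk1, at a distance of 0.154, where the median over all genes compared was 0.747. Next came Map2k6, a MAP kinase kinase gene (0.171), and Gdap10 (0.191). The nearest to Nmrk1 was Map2k6 (0.117), then Nampt (0.154) and Ppat, the first enzyme gene of purine synthesis (0.192), against a median of 0.685. Map2k6 had group means of 8.40, 7.03 and 7.27 in wild type, mutant and rescue, and Ppat of 9.25, 8.14 and 8.22.

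Haao lay closest to Entpd8, an ectonucleotidase gene (0.088), Pcyt2, of phosphatidylethanolamine synthesis (0.090), and the glucagon receptor gene Gcgr (0.093), with a median distance of 0.403. Their mutant means were 0.74, 0.85 and 0.91 above wild type, and their rescue means lay 0.33, 0.32 and 0.43 below mutant, in the same order. These distances describe 9 arrays that share the group structure, and say nothing of shared control.

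**Figure D4:**
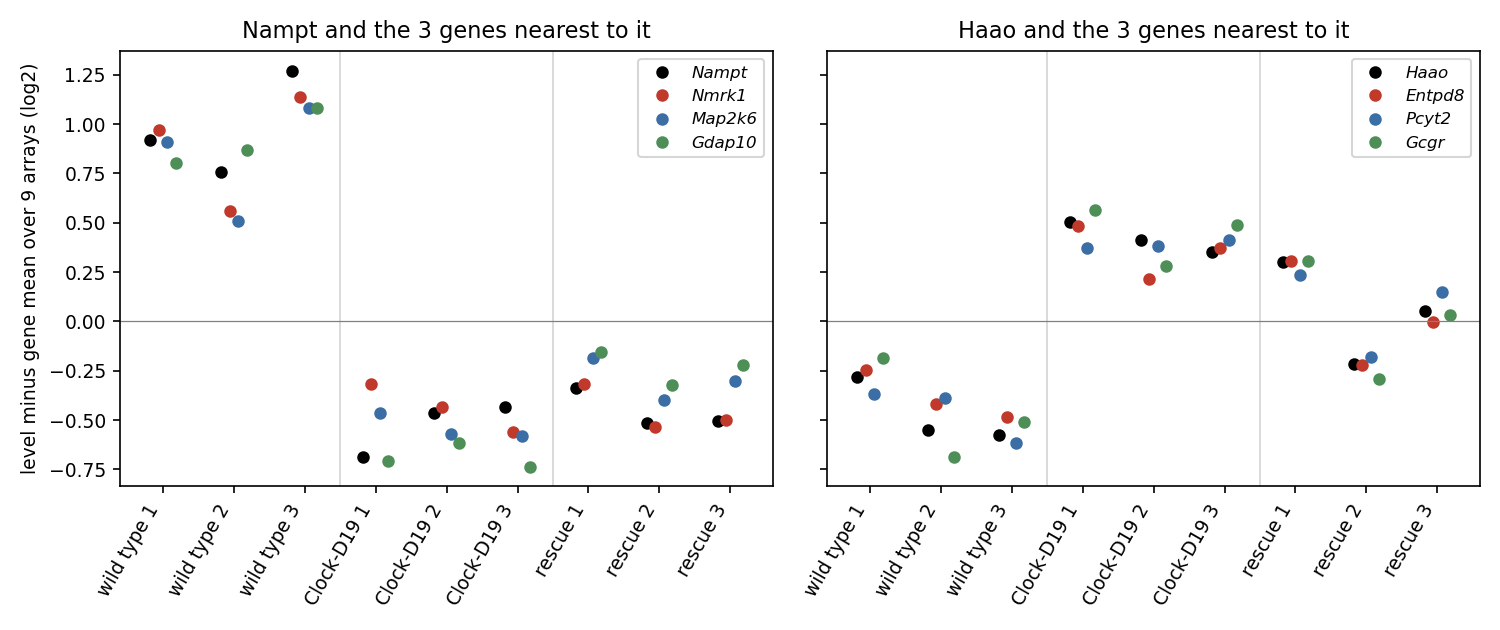
Log2 level minus the gene's mean over the 9 arrays (vertical axis) for each mouse (horizontal axis), for Nampt and Haao and the 3 genes nearest to each. The Nampt set is above its mean in wild type only, and the Haao set is on average lowest in wild type and highest in Clock-D19, with rescue replicate 2 the lowest of the rescue livers.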

How the data were processed

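Liver RNA of 9 mice was labelled with biotin and read on Affymetrix arrays. The deposited values are log2 levels per probe set, which the authors made with RMA in Affymetrix Expression Console, per the submitters' processing notes; no version or filter is named there. Equalising the arrays' distributions would mask a change shared by most genes, and differences of dim genes come out too small. The log base was read from the range, -0.46 to 13.86. Of 35556 probe sets, 21789 had a single gene symbol in the platform annotation, 1621 several and 12146 none. Entrez identifiers of 21698 matched the reference gene table, and a gene with several was represented by its brightest probe set, which left 19938 genes. Groups came from the sample titles.

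limma 3.58.1 in R 4.3.3 fitted 1 mean per group to all 9 arrays (6 residual and 8.475 prior degrees of freedom), and the fit was tested on simulated data. Promoters and figures used Python 3.11.15 and matplotlib 3.10.9. All members were named; of the other NAD genes, up to 6 of smallest p per comparison and Nnt; and the 3 nearest genes to Nampt, Nmrk1 and Haao, predicted genes left out. Nmrk2, Nmnat2, Naxd, Tdo2, Kmo, Kynu, Acmsd, Kyat1, Kyat3, Aadat, Nadsyn1, Aox1, Aox3, Sirt2 and Sirt4 to Sirt7 fall outside that rule and were named after their values were seen. Members, lists and tests were chosen with earlier results of these data known. The alternatives were a replicate block, a filter on dim genes, repeated quantile normalization, median centring, a trended and robust prior, array weights, the 6 arrays compared, the mean of probe sets, removal of the trend over gene span, and leaving out each array. The number of arrays limits the precision.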

Additional observations from a re-analysis of the deposited data

How the results depend on the processing

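The 18 alternatives gave 540 values for the 30 differences of the members; 519 kept their direction and their side of the threshold, 2 lost and 7 gained a call, and 12 changed sign, all of them differences that were not called. Members called across the 3 groups numbered 5 to 6 without single arrays, in mutant against wild type 4 to 5 (4 without wild-type replicate 1), in rescue against mutant 1 each time, and in rescue against wild type 2 to 4. With quantile normalization repeated, 2 members were called in rescue against mutant.

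Counts of the other NAD genes moved more. In mutant against wild type 5 were called with median centring and 2 to 8 without single arrays: 5, 3 and 2 without wild-type replicates 1, 2 and 3, and 4 without mutant replicate 1. In rescue against mutant 2 were called with the dim genes left out, the trended prior or array weights, 0 with median centring or the span trend removed, and 0 to 1 without single arrays; in rescue against wild type 1 with the dim genes left out, quantile normalization or the trended prior. The cause was not tested.

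Changes of sign were near 0. Nmrk1 in rescue against mutant was 0.05 with median centring, 0.03 with the span trend removed and -0.08 to 0.05 without single arrays, where Nampt was -0.0045 to 0.12 and Nmnat1 -0.05 to 0.13. In rescue against wild type Nadk was 0.02 with quantile normalization, and without single arrays Nadk was -0.09 to 0.04, Sirt3 -0.05 to 0.17, Naprt -0.03 to 0.14 and Nt5e -0.02 to 0.41.

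The labels do not say whether the replicate numbers pair the arrays. Correlations of deviations ran from -0.111 to 0.191 between same-numbered arrays and from -0.256 to 0.179 between arrays of different number. These overlapping ranges do not decide whether the numbers pair the arrays. With the replicate number as a block, 3368, 931 and 507 of all genes were called in the 3 comparisons, against 3068, 759 and 454 without it. With the replicate number as a block the members called were 6, 5, 1 and 4 (across groups, mutant against wild type, rescue against mutant, rescue against wild type), with Haao added in the last (0.52, limma adjusted p = 0.0275), and the other NAD genes called were 9, 2 and 1 in the 3 comparisons.

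All genes called in mutant against wild type numbered 3068 (1270 upward), 2882 (610 upward) with median centring and 1695 without wild-type replicate 3. In rescue against mutant they numbered 759, and 200 to 692 without single arrays or 1334 with array weights; in rescue against wild type 454, and 233 to 501 or 711 with the dim genes left out. The span trend amounted to -0.055 to 0.072 for the members in mutant against wild type. RMA values of dim genes are compressed; 6 of the other NAD genes lay among the dimmest 40%.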
